A study of Mus musculus with 8 samples.

Results

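The 10 genes described here, Ppat, Gart, Pfas, Paics, Atic, Impdh2, Gmps, Cad, Umps and Ctps, encode enzymes that build purine and pyrimidine nucleotides from small precursors. They were taken by name, as enzymes of these routes, and they are 10 of the 37583 gene identifiers counted. All 10 were found in the files under a single identifier each and all 10 were among the 13964 genes that passed the filter on low counts. The cells sequenced were splenic B cells of C57BL/6 mice. The TLR group (2 libraries) received the CpG oligonucleotide ODN1668 for 3 days and, in the last 5 hours, also LPS, PMA and ionomycin; the submitters call these cells TLR-Bregs. The CpG group (3 libraries) received ODN1668 alone for 3 days, and the naive group (3 libraries) is described without any stimulus.

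CpG DNA is a ligand of TLR9 and LPS a ligand of TLR4, while PMA and ionomycin act below surface receptors, on protein kinase C and on intracellular calcium. All 4 agents were present in the TLR group, and the CpG group received CpG alone. The shares of LPS, PMA and ionomycin in a change between TLR and CpG libraries cannot be told apart. No group received LPS, PMA and ionomycin without CpG. Nothing in the labels says that libraries of a group came from separate mice or cultures, so a p-value here sets a difference against the spread among these libraries, which may be technical.

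Purines are assembled on ribose, atom by atom, from glutamine, glycine, aspartate, carbon dioxide and folate-bound one-carbon units, ending at inosine monophosphate (IMP), which is then turned into AMP or GMP. Pyrimidines are made the other way round: the ring is built first and joined to ribose afterwards, giving UMP, from which CTP is made after phosphorylation. Resting lymphocytes can meet much of their need by salvage of ready-made bases, whereas dividing lymphocytes depend on synthesis, which is why inhibitors of IMP dehydrogenase and of dihydroorotate dehydrogenase are used as immunosuppressants. Ppat catalyses the committed step of purine synthesis, and Cad, a single polypeptide with several activities, starts pyrimidine synthesis.

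Gene totals lay between 15804311 and 20069272 counts per library, so that a single count equalled 0.0498 to 0.0633 CPM (counts scaled to library size). Levels below are CPM after TMM scaling, and CPM per kilobase of exon where genes are compared with each other. Library names carried the prefix RCa1 in replicate 1 of each group and RCa18 in all others, and the labels do not say what the prefixes stand for. Multimapped reads were 37.5% to 50.2% of lines in RCa1 libraries and 14.7% to 21.5% in RCa18 libraries. Summed over 5 B cell markers (Cd79a, Cd79b, Ms4a1, Cd22, Pax5), the level was 2084 and 2185 CPM in TLR libraries, 10287, 6917 and 6894 CPM in CpG libraries and 7605 to 8113 CPM in naive libraries. All 5 B cell markers were called lower in TLR than in CpG libraries and none differed past the threshold between CpG and naive libraries. Macrophage, T cell and natural killer cell markers were lower in both stimulated groups: 12 macrophage and monocyte markers summed to 13.1 and 18.7 CPM in TLR libraries, 18.1 to 39.6 CPM in CpG libraries and 174 to 1304 CPM in naive libraries, the highest in replicate 1, and all 12 were called lower in CpG than in naive libraries. T cell markers summed to 1.92 and 5.47 CPM in TLR libraries, 1.80 to 4.49 CPM in CpG libraries and 9.02 to 30.3 CPM in naive libraries, and natural killer cell markers to 1.08 and 1.65 CPM in TLR, 1.74 to 2.99 CPM in CpG and 14.5 to 71.0 CPM in naive libraries. Dendritic cell markers summed to 12.8 and 26.4 CPM in TLR, 26.8 to 52.4 CPM in CpG and 27.0 to 65.5 CPM in naive libraries, with both TLR libraries below all others. Erythroid markers summed to 34.2 and 36.6 CPM in TLR, 3.48 to 12.1 CPM in CpG and 4.66 to 54.6 CPM in naive libraries. Their TLR sums stood above all CpG sums, and the naive sums overlapped both groups. All 6 neutrophil markers were at 0 in TLR libraries. The part of these cells in the enzyme values was not tested, and in bulk RNA fewer cells of a type and less RNA per cell cannot be told apart.

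Since all 10 genes stood higher in TLR than in naive libraries, the sequence at their start sites was read, and it is shown where it held a longer known motif. RefSeq promoter windows of 300 bases (250 before and 50 after the start, GRCm38.p6) were matched by symbol for 9 genes, all but Pfas. They were searched on both strands for the E-box CACGTG, which Myc with Max and other factors bind, the cAMP response element TGACGTCA, the GC box GGGCGG and the CCAAT box; the motifs were chosen after the sequences had been read. Among the 23 matches, none overlapped a match of another motif. The E-box was found in 3 of 9 windows, against 7.15% of all 32851 windows and 9.86% of the 12675 windows of tested genes. In the 30-base sites that follow, read 5′ to 3′ along the strand of the named gene, capitals mark the motif.
Paics, E-box, chr5:76951087-76951116, plus strand: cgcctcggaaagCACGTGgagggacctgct
Atic, E-box, chr1:71557137-71557166, plus strand: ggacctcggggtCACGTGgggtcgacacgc
Impdh2, E-box, chr9:108560314-108560343, plus strand: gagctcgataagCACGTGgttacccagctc
Umps, response element, chr16:33967017-33967046, minus strand: ggacttctgggTGACGTCAcgggccccaag

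The match began 203 bases before the RefSeq start of Paics, 7 bases before that of Atic and 110 bases before that of Impdh2. In the GENCODE M21 annotation the Paics site lies within an exon of Ppat, which runs the opposite way. The Impdh2 site lies in an exon of Impdh2 itself, since an annotated transcript starts further upstream. Of the Atic site, 17 of the 30 bases lie in an exon of Atic. All 30 bases of the Umps site lie in annotated exons, of Umps and of the antisense gene Gm15829. The response element in Umps begins past the start site and was found in 1 of 9 windows, against 3.04% of windows of tested genes. Ctps, the gene with the largest change of the 10 between TLR and naive libraries, had neither an E-box nor the response element; its 250 bases upstream, which hold no annotated exon, are given with the GC box, on the other strand 20 bases before the start, in capitals.
Ctps, chr4:120570277-120570526, minus strand: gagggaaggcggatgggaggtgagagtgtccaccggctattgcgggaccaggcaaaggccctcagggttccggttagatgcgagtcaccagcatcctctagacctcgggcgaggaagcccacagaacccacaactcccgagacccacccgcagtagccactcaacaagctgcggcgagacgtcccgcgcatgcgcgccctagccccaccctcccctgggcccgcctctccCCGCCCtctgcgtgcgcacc

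The GC box was in all 9 windows, against 60.9% of windows of tested genes, and the CCAAT box in 4 of 9, against 37.6%. A match is a run of letters, and no binding was measured.

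All 10 enzyme genes stood higher in TLR than in naive libraries, with no overlap between the libraries, a gap that 39.8% of all tested genes showed. All 10 were called higher (edgeR's quasi-likelihood test, adjusted p under 0.05) and none lower, against a background of 31.6% of tested genes called higher and 29.7% lower. The median fold change over the 10 was 1.63 on the log2 scale, against 0.01 over all tested genes, and 9 of the 10 rose at least 2-fold, against 18.4% of tested genes. The increase fell into a step over 3 days of CpG and a second step within the last 5 hours. In CpG against naive libraries, 7 of 10 were called higher and none lower, where 23.5% of tested genes were called higher and 21.9% lower; 2 of the 7 reached 2-fold, against 11.4%. The CpG and naive libraries did not overlap for 5 of the 10, against 28.3% of tested genes. In TLR against CpG libraries, 8 of 10 were called higher and none lower, where 19.0% of tested genes were called higher and 19.8% lower; 7 of the 8 reached 2-fold, against 7.64%. The TLR and CpG libraries did not overlap for 8 of the 10, against 29.2%. The median log2 fold change over the 10 was 0.59 at the first step and 1.12 at the second, where the medians over all tested genes were 0.01 and -0.02. These comparisons share the CpG libraries, so the steps are set against each other only by a test of their difference, given after the single genes. Summed over the 10 genes, the level was 2211 ± 94.8 CPM in TLR libraries (SD, n = 2), 1075 ± 184 CPM in CpG libraries and 705 ± 59.8 CPM in naive libraries (SD, n = 3 each).

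**Figure D1:**
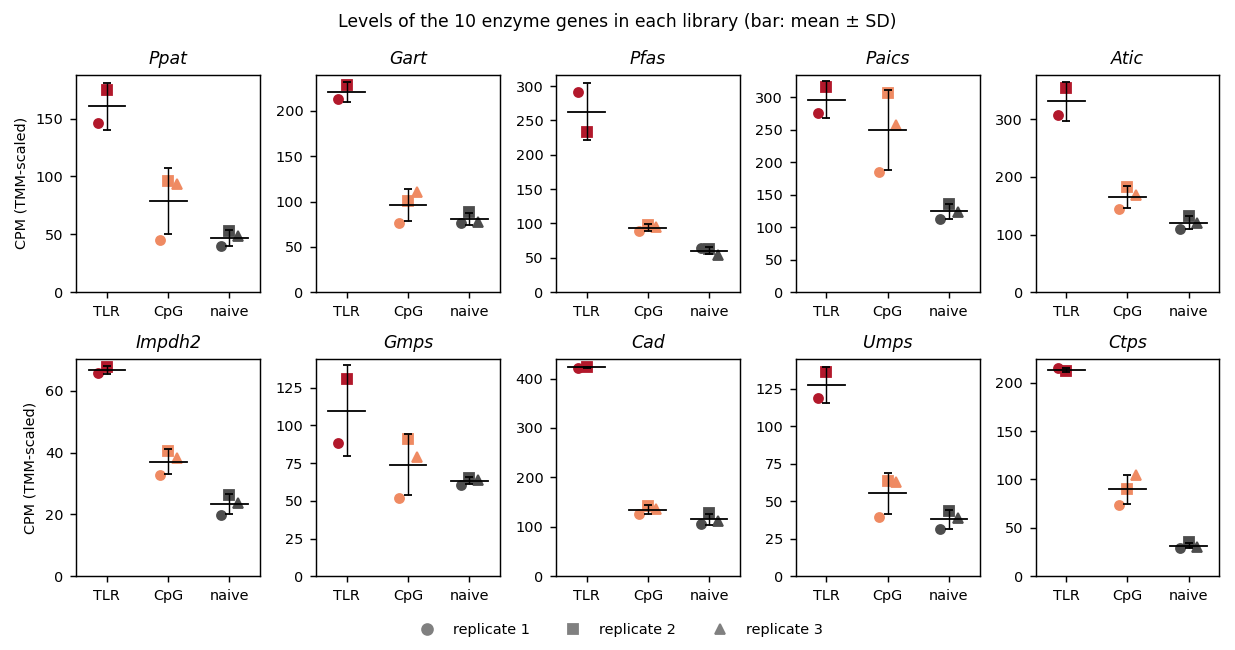
Levels of the 10 enzyme genes in CPM after TMM scaling (y axis, from 0) in each TLR, CpG and naive library; points are libraries, with the shape giving the replicate, and bars the mean ± SD. TLR libraries lie above all naive libraries for every gene, and Cad shows the widest gap between TLR (422 and 424 CPM) and CpG libraries (126 to 142 CPM).

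Among the enzymes that lead to IMP, Pfas, which converts FGAR to FGAM with glutamine, changed the most at the second step. Pfas (chr11:68985697-69008460, minus strand) had 292 and 233 CPM in TLR libraries, 89.1, 98.3 and 95.0 CPM in CpG libraries and 64.4, 62.8 and 54.6 CPM in naive libraries. The 3 groups did not overlap. Its log2 fold change was 1.48 ± 0.13 (SE) in TLR against CpG libraries (edgeR adjusted p = 2.95e-05) and 0.64 ± 0.12 in CpG against naive libraries (adjusted p = 0.00202).

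Gart, which carries several steps of the pathway in one protein, lies at chr16:91621186-91646952 on the minus strand. It had 213 and 229 CPM in TLR libraries, 76.2, 101 and 111 CPM in CpG libraries and 76.7, 88.8 and 77.5 CPM in naive libraries. Both TLR libraries stood above all others, while CpG replicate 1 lay just below all naive libraries. The log2 fold change was 1.20 ± 0.16 in TLR against CpG libraries (edgeR adjusted p = 0.000269) and 0.24 ± 0.14 in CpG against naive libraries, which did not pass (adjusted p = 0.188). Without CpG replicate 1 the first step of Gart passed, at 0.39 (adjusted p = 0.0144). An antisense gene, Gm15964, covers 1014 bases or 19.7% of the exon length of Gart. Since counting ignored strand, reads that fall there cannot be told apart and may be missing from both counts.

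Ppat (chr5:76913249-76951578, minus strand), the amidophosphoribosyltransferase of the committed step, had 146 and 175 CPM in TLR libraries, 45.5, 96.3 and 93.8 CPM in CpG libraries and 39.5, 52.6 and 48.9 CPM in naive libraries. CpG replicate 1 stood far below the other CpG libraries and inside the naive range. Ppat was called higher in TLR than in CpG libraries, at 1.03 ± 0.27 (edgeR adjusted p = 0.0145), a call lost without TLR replicate 2 (0.89, adjusted p = 0.0989). It was called in CpG against naive libraries at 0.74 ± 0.25 (adjusted p = 0.0363). That call was lost without any 1 of the naive libraries (0.62 to 0.82, adjusted p = 0.0577 to 0.113), without CpG replicate 2 (0.58, adjusted p = 0.117) and without CpG replicate 3 (0.59, adjusted p = 0.119).

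Paics (chr5:76951307-76967509, plus strand), which carries the carboxylation of AIR and the following ligation with aspartate, followed the other order. It had 276 and 316 CPM in TLR libraries, 185, 307 and 257 CPM in CpG libraries and 113, 136 and 124 CPM in naive libraries. TLR and CpG libraries overlapped, and all CpG libraries stood above all naive ones. Its log2 fold change was 0.24 ± 0.19 in TLR against CpG libraries, which did not pass (edgeR adjusted p = 0.349), and 1.01 ± 0.17 in CpG against naive libraries, a 2.01-fold rise (adjusted p = 0.00135). Ppat and Paics are divergent neighbours whose annotated first exons share 272 bases on opposite strands, 6.15% of the exon length of Ppat and 8.67% of that of Paics. Reads from those shared bases cannot be told apart, since counting ignored strand, and may be missing from both counts.

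Atic, whose protein closes the ring to IMP with a folate-bound formyl group, lies at chr1:71557150-71579631 on the plus strand. Its level was 307 and 355 CPM in TLR libraries, 144, 182 and 169 CPM in CpG libraries and 110, 132 and 120 CPM in naive libraries, with no overlap between groups. It was higher by 1.00 ± 0.14 on the log2 scale in TLR against CpG libraries (edgeR adjusted p = 0.000390) and by 0.45 ± 0.13 in CpG against naive libraries (adjusted p = 0.0152). The CpG call was lost without naive replicate 1 (0.38, adjusted p = 0.0604) and without naive replicate 3 (0.44, adjusted p = 0.0559).

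In the branch from IMP to GMP, Impdh2 was called at both steps, while Gmps was called at neither and lay near the threshold in TLR against CpG libraries. Impdh2 (chr9:108560286-108565584, plus strand) encodes an IMP dehydrogenase, the target of mycophenolic acid. Its level was 65.7 and 67.6 CPM in TLR libraries, 32.6, 40.4 and 38.3 CPM in CpG libraries and 19.9, 26.3 and 23.6 CPM in naive libraries. The groups did not overlap, and the log2 fold change was 0.84 ± 0.15 in TLR against CpG libraries (edgeR adjusted p = 0.00162) and 0.67 ± 0.14 in CpG against naive libraries (adjusted p = 0.00314). A processed pseudogene, Impdh2-ps, matches 1545 bases of it at 99.7% identity, so part of its reads may be missing from these counts; 378 counts over all libraries were given to the pseudogene and 5795 to Impdh2.

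Gmps, the glutamine-dependent GMP synthetase at chr3:63976106-64022579 on the plus strand, had the smallest change of the 10 between TLR and naive libraries. It had 88.3 and 131 CPM in TLR libraries, 51.6, 90.9 and 79.1 CPM in CpG libraries and 60.8, 65.3 and 63.9 CPM in naive libraries. CpG libraries lay on both sides of the naive range and reached above the lower TLR library. The log2 fold change was 0.57 ± 0.23 in TLR against CpG libraries (edgeR adjusted p = 0.0739) and 0.22 ± 0.21 in CpG against naive libraries (adjusted p = 0.406). The difference between TLR and CpG libraries passed without CpG replicate 2 (0.75, adjusted p = 0.0320) or without TLR replicate 1 (0.83, adjusted p = 0.0451), and with the name prefix as a term (0.65, adjusted p = 0.00865). Over both steps Gmps was higher by 0.79 ± 0.23 (adjusted p = 0.0124), which did not pass without TLR replicate 2 (0.48, adjusted p = 0.156).

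On the route to UMP, Cad and Umps were called higher in TLR than in CpG libraries. Cad (chr5:31054780-31078479, plus strand) had 422 and 424 CPM in TLR libraries, 126, 142 and 137 CPM in CpG libraries and 106, 128 and 112 CPM in naive libraries. The TLR libraries stood far above all others, and the lowest CpG library lay within the naive range. Cad was 3.13-fold higher in TLR than in CpG libraries, a log2 fold change of 1.65 ± 0.12 (edgeR adjusted p = 1.14e-05), the largest of the 10 in that comparison. In CpG against naive libraries its change of 0.23 ± 0.11 did not pass (adjusted p = 0.114).

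Umps (chr16:33954782-33967038, minus strand), which joins orotate to ribose phosphate and decarboxylates the product to UMP, had 119 and 136 CPM in TLR libraries, 39.3, 63.3 and 62.9 CPM in CpG libraries and 31.4, 43.5 and 38.7 CPM in naive libraries. As for Ppat, CpG replicate 1 lay among the naive libraries. Umps was higher by 1.21 ± 0.21 in TLR against CpG libraries (edgeR adjusted p = 0.00150). It was called at 0.54 ± 0.19 in CpG against naive libraries (adjusted p = 0.0423), a call lost without naive replicate 1 or 3, CpG replicate 2 or 3, or either TLR library (0.41 to 0.55, adjusted p = 0.0553 to 0.139), and with RLE scaling (0.51, adjusted p = 0.0590). An antisense gene, Gm15829, shares 213 bases, 6.11% of the exon length of Umps.

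Ctps (chr4:120539868-120570276, minus strand) encodes a CTP synthetase, which aminates UTP to CTP with glutamine; in humans, CTPS1 is required for lymphocyte proliferation. It had 215 and 212 CPM in TLR libraries, 74.1, 89.9 and 105 CPM in CpG libraries and 29.5, 35.0 and 30.7 CPM in naive libraries. The groups were far apart at both steps. The log2 fold change was 1.25 ± 0.15 in TLR against CpG libraries (edgeR adjusted p = 0.000156) and 1.50 ± 0.14 in CpG against naive libraries (adjusted p = 3.48e-05), a 2.82-fold rise and the largest of the 10 at that step. Over both steps Ctps was 6.72-fold higher in TLR than in naive libraries (2.75 ± 0.15, adjusted p = 7.12e-07).

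**Figure D2:**
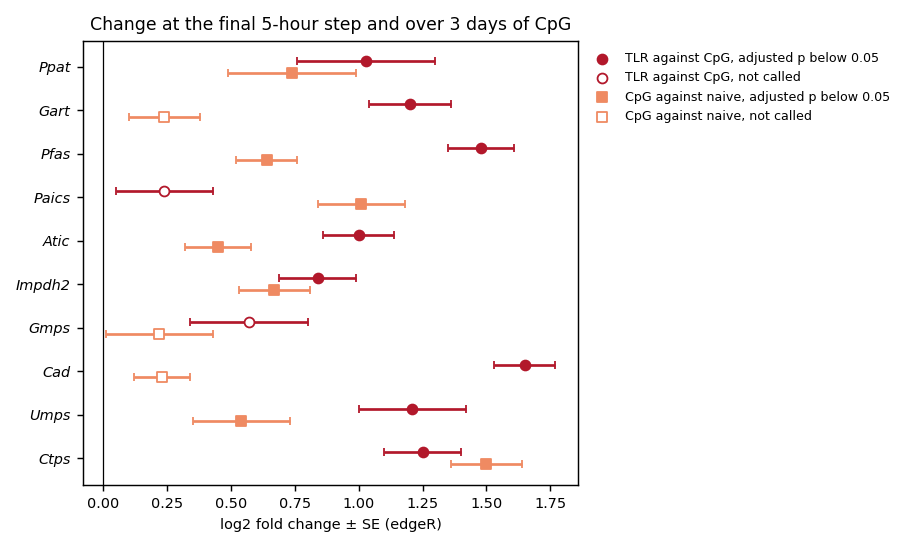
Log2 fold change ± SE from edgeR (x axis) of each enzyme gene (rows) in TLR against CpG libraries (circles) and in CpG against naive libraries (squares); filled symbols have an adjusted p below 0.05. For Cad the circle is at 1.65 and the square at 0.23, and for Gart at 1.20 and 0.24, while Paics has its circle at 0.24 and its square at 1.01.

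Whether the steps differed was tested as the second log2 fold change minus the first, in the same edgeR fit; this contrast was added after the values had been seen. It was called in favour of the second step for 3 of the 10 genes, where 10.0% of tested genes were called that way, and in favour of the first step for none, where 16.2% were. The shares over all tested genes also hold genes that fell at a step, so they are not shares of rising genes alone. Cad had a difference of 1.42 ± 0.20 (adjusted p = 0.000722), Gart of 0.96 ± 0.26 (adjusted p = 0.0217) and Pfas of 0.84 ± 0.21 (adjusted p = 0.0167). The call for Gart was lost without TLR replicate 2 (0.89, adjusted p = 0.0701) and that for Pfas without TLR replicate 1 (0.67, adjusted p = 0.0630). Paics had the opposite sign, at -0.76 ± 0.31 (adjusted p = 0.0991), and passed without CpG replicate 1 (-1.11, adjusted p = 0.00807). Atic had 0.55 ± 0.23 (adjusted p = 0.106) and Umps 0.66 ± 0.35 (adjusted p = 0.191). The differences of Ppat (0.29 ± 0.45), Impdh2 (0.17 ± 0.24), Gmps (0.35 ± 0.37) and Ctps (-0.25 ± 0.24) did not pass (adjusted p = 0.491 to 0.683).

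CpG replicate 1, an RCa1 library with 47.1% of lines multimapped and the highest B cell marker sum, was the lowest CpG library for all 10 genes. Within the RCa1 libraries (1 per group, so with no test), the log2 difference in CpG against naive ranged over the 10 genes between -0.24 (Gmps) and 1.33 (Ctps), with Gart at -0.01 and Ppat at 0.20. Within the RCa18 libraries it ranged between 0.22 (Cad) and 1.57 (Ctps), with Gart at 0.35, Gmps at 0.39 and Ppat at 0.91. In TLR against CpG the difference ranged between 0.57 (Paics) and 1.74 (Cad) within RCa1 and between 0.17 (Paics) and 1.61 (Cad) within RCa18. All 10 were above 0 in both sets. In TLR against naive it ranged between 0.54 (Gmps) and 2.86 (Ctps) within RCa1 and between 1.02 (Gmps) and 2.69 (Ctps) within RCa18. With only RCa18 libraries in the fit, Gart (0.34, adjusted p = 0.0432) and Gmps (0.39, adjusted p = 0.0239) also passed in CpG against naive libraries, and Gmps passed in TLR against CpG libraries (0.62, adjusted p = 0.0130). In that fit the difference of the steps passed for Paics (-0.95, adjusted p = 0.0284) and not for Pfas (0.56, adjusted p = 0.0799). With the prefix as a term instead, it also passed for Paics (-0.67, adjusted p = 0.0486), Atic (0.59, adjusted p = 0.0200) and Umps (0.78, adjusted p = 0.0217).

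Per kilobase of exon, Paics was the most abundant of the 10 in every group, at 94.3 ± 9.07 CPM per kb in TLR libraries, 79.6 ± 19.5 in CpG libraries and 39.6 ± 3.57 in naive libraries (SD, n = 2, 3 and 3). In TLR libraries the order below Paics was Ctps (64.3 ± 0.653), Cad (51.6 ± 0.174), Gart (42.9 ± 2.24), Atic (41.5 ± 4.24), Umps (36.6 ± 3.40), Ppat (36.3 ± 4.60), Pfas (33.1 ± 5.25), Impdh2 (21.7 ± 0.451) and Gmps (13.5 ± 3.73). The levels of Gart and Atic, and those of Umps, Ppat and Pfas, differed by less than the larger of their SDs. Ctps was second in TLR libraries, and it was second in CpG libraries too (27.0 ± 4.62). In naive libraries Ctps came seventh, at 9.57 ± 0.877 CPM per kb, after Paics, Gart (15.7 ± 1.31), Atic (15.1 ± 1.40), Cad (14.1 ± 1.34), Umps (10.9 ± 1.75) and Ppat (10.6 ± 1.52). Umps and Ppat each differed from Ctps by less than their own SD. Gmps (7.82 ± 0.287), Pfas (7.64 ± 0.662) and Impdh2 (7.57 ± 1.04) were the lowest there and lay within their spread. The level of Impdh2 may be too low in every group, since reads that also match Impdh2-ps may be missing. Those of Gart, Paics, Ppat and Umps may be too low as well, since reads from bases shared with another gene may be missing. Among all tested genes ranked per kb, Ctps stood at percentile 94.1 in TLR, 84.0 in CpG and 60.3 in naive libraries, and Gmps at 67.7 in TLR, 58.5 in CpG and 55.3 in naive libraries.

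Several steps have a second gene for the same reaction, and these did not all move with the 10. The pairs were set side by side after the values had been seen, and their shares are given as a description. Ctps2, the other CTP synthetase, had 46.0 and 53.0 CPM in TLR libraries, 110, 121 and 136 CPM in CpG libraries and 103, 110 and 113 CPM in naive libraries. Both TLR libraries were below all others, and Ctps2 fell by 1.30 on the log2 scale in TLR against CpG libraries (SE 0.13, edgeR adjusted p = 6.41e-05), with 0.17 ± 0.11 in CpG against naive libraries (adjusted p = 0.256). Per kb, Ctps made up 86.9% and 85.0% of Ctps plus Ctps2 in TLR libraries, 49.0%, 51.5% and 52.3% in CpG libraries and 28.9%, 31.1% and 27.9% in naive libraries. No group overlapped another, and the gene that supplied most of the pair was Ctps in TLR libraries and Ctps2 in naive libraries.

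Impdh1, the second IMP dehydrogenase, had 89.2 and 73.6 CPM in TLR libraries, 31.3, 46.5 and 27.4 CPM in CpG libraries and 44.4, 43.5 and 44.6 CPM in naive libraries. It was higher by 1.21 ± 0.20 in TLR against CpG libraries (edgeR adjusted p = 0.00115), with -0.33 ± 0.18 in CpG against naive libraries (adjusted p = 0.168). Impdh2 made up 44.1% and 49.6% of the pair per kb in TLR libraries, 48.2% to 60.0% in CpG libraries and 32.4% to 39.3% in naive libraries. Its share was thus above the naive range in both stimulated groups, and the TLR and CpG ranges overlapped. Reads of Impdh2 that also match its pseudogene may be missing, so its share may be too low in every group.

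**Figure D3:**
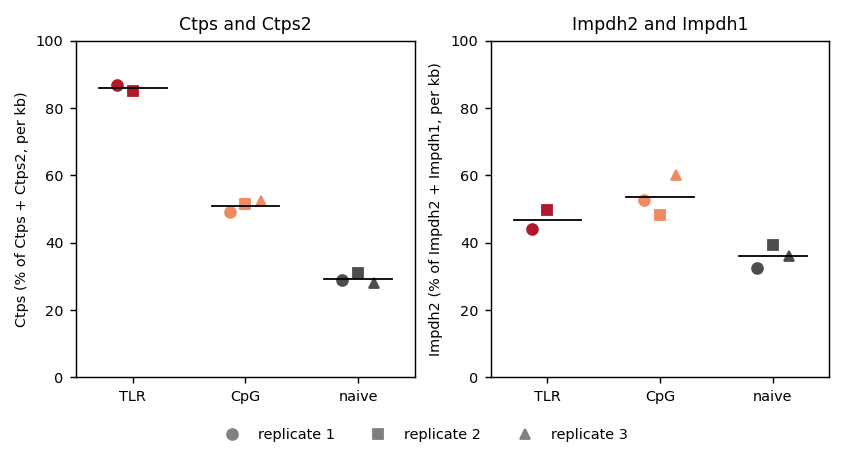
Share of Ctps in Ctps plus Ctps2 (left) and of Impdh2 in Impdh2 plus Impdh1 (right), in percent of CPM per kb (y axis, 0 to 100), in each TLR, CpG and naive library; lines are group means. Ctps averages 86.0% in TLR, 50.9% in CpG and 29.3% in naive libraries, while the TLR and CpG points of Impdh2 overlap.

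The remaining enzymes of the same routes were not uniform. Adsl, adenylosuccinate lyase, which acts both before IMP and on the way to AMP, had 178 and 168 CPM in TLR libraries, 106, 96.8 and 120 CPM in CpG libraries and 53.0, 61.7 and 61.5 CPM in naive libraries. It was called higher at both steps, by 0.69 ± 0.12 in TLR against CpG libraries (edgeR adjusted p = 0.00191) and by 0.87 ± 0.11 in CpG against naive libraries (adjusted p = 0.000256). Adss, adenylosuccinate synthase, rose in CpG against naive libraries (0.33 ± 0.11, adjusted p = 0.0351) and had -0.13 ± 0.13 in TLR against CpG libraries (adjusted p = 0.434). Adssl1, its paralogue known from muscle, had 4.36 and 7.90 CPM in TLR libraries, 52.0, 72.0 and 46.9 CPM in CpG libraries and 18.4, 12.2 and 11.6 CPM in naive libraries. It was thus highest in CpG libraries, called higher in CpG against naive libraries (2.01 ± 0.26, adjusted p = 0.000255) and lower in TLR against CpG libraries (-3.21 ± 0.33, adjusted p = 7.26e-05). Dhodh, the mitochondrial dihydroorotate dehydrogenase that acts between Cad and Umps, had 51.0 and 40.1 CPM in TLR libraries, 25.8, 21.5 and 22.4 CPM in CpG libraries and 28.0, 31.2 and 32.7 CPM in naive libraries. Unlike the 10, it was called lower in CpG against naive libraries (-0.40 ± 0.14, edgeR adjusted p = 0.0399). Like 8 of the 10, it was called higher in TLR against CpG libraries (0.97 ± 0.15, adjusted p = 0.000820).

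Genes that supply the pathway were listed by function, and their counts stand against the 19.0% of all tested genes called higher and 19.8% lower in TLR against CpG libraries, and the 23.5% higher and 21.9% lower in CpG against naive libraries. Of 4 tested genes of PRPP synthesis, which gives the activated ribose, 2 were called higher and 1 lower in TLR against CpG libraries, and 1 higher and 1 lower in CpG against naive libraries. Prps1 rose by 0.95 ± 0.14 in TLR against CpG libraries (edgeR adjusted p = 0.000556) and Prps2 fell by 0.50 (SE 0.17, adjusted p = 0.0440). Of 15 tested genes of folate one-carbon supply, 7 were called higher and 1 lower in TLR against CpG libraries (median 1.03), and 7 higher and none lower in CpG against naive libraries (median 0.85). Shmt1, which loads a one-carbon unit from serine onto folate, rose in TLR against CpG libraries (1.76 ± 0.16, adjusted p = 4.38e-05) and in CpG against naive libraries (1.10 ± 0.15, adjusted p = 0.000389). Mthfd1, which makes the formyl-folate used by Gart and Atic, rose by 1.32 ± 0.18 in TLR against CpG libraries (adjusted p = 0.000340). Of 14 tested genes of serine, glycine and glutamine supply, 8 were called higher and 1 lower in TLR against CpG libraries, and 8 higher and none lower in CpG against naive libraries. Phgdh, which starts serine synthesis, rose by 1.86 ± 0.23 in TLR against CpG libraries (adjusted p = 0.000229).

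Genes of deoxynucleotide synthesis, which turns these nucleotides into DNA precursors, were called mostly in CpG against naive libraries. Of 8 tested genes, 7 were called higher in CpG against naive libraries, all 7 at least 2-fold (median over the 8 of 1.36), and 1 lower, the ribonucleotide reductase gene Rrm2b (-0.68 ± 0.25, edgeR adjusted p = 0.0479), which is named after its value was seen. In TLR against CpG libraries 2 were called higher and none lower (median 0.28). Of all tested genes, 23.5% were called higher and 21.9% lower in CpG against naive libraries, and 19.0% and 19.8% in TLR against CpG libraries. Tyms, thymidylate synthase, had 104 and 69.8 CPM in TLR libraries, 67.1, 53.8 and 99.1 CPM in CpG libraries and 4.38, 4.26 and 4.85 CPM in naive libraries. It stood 16.3-fold higher in CpG than in naive libraries (4.03 ± 0.26, edgeR adjusted p = 5.20e-06), while TLR and CpG libraries overlapped (0.25 ± 0.25, adjusted p = 0.461). Rrm2, a ribonucleotide reductase subunit, rose by 3.63 ± 0.29 in CpG against naive libraries (adjusted p = 1.40e-05) and had -0.44 ± 0.29 in TLR against CpG libraries (adjusted p = 0.255). Of the 10 enzyme genes, Cad and Gart passed in TLR against CpG libraries and not in CpG against naive libraries. Paics passed only in CpG against naive libraries, Gmps in neither comparison and the others in both. The difference between the lists was not tested.

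Of 12 tested nucleotide kinases, which turn the products into triphosphates, 7 were called higher and none lower in TLR against CpG libraries, and 5 higher and none lower in CpG against naive libraries. Of 13 tested salvage genes, 4 were called higher and 2 lower in TLR against CpG libraries, and 7 higher and 4 lower in CpG against naive libraries. Over all tested genes the shares were 19.0% higher and 19.8% lower in TLR against CpG libraries, and 23.5% and 21.9% in CpG against naive libraries. Uck2, uridine-cytidine kinase, had 120 and 112 CPM in TLR libraries, 26.8, 35.4 and 32.9 CPM in CpG libraries and 9.74, 8.97 and 8.82 CPM in naive libraries, with no overlap. It rose by 1.87 ± 0.14 in TLR against CpG libraries (edgeR adjusted p = 1.24e-05) and by 1.79 ± 0.13 in CpG against naive libraries (adjusted p = 1.02e-05). Myc, a transcription factor known to bind genes of nucleotide synthesis, had 393 and 327 CPM in TLR libraries, 98.0, 137 and 137 CPM in CpG libraries and 76.9, 91.2 and 87.2 CPM in naive libraries. The groups did not overlap, with log2 fold changes of 1.54 ± 0.16 in TLR against CpG libraries (adjusted p = 9.03e-05) and 0.54 ± 0.15 in CpG against naive libraries (adjusted p = 0.0152).

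**Figure D4:**
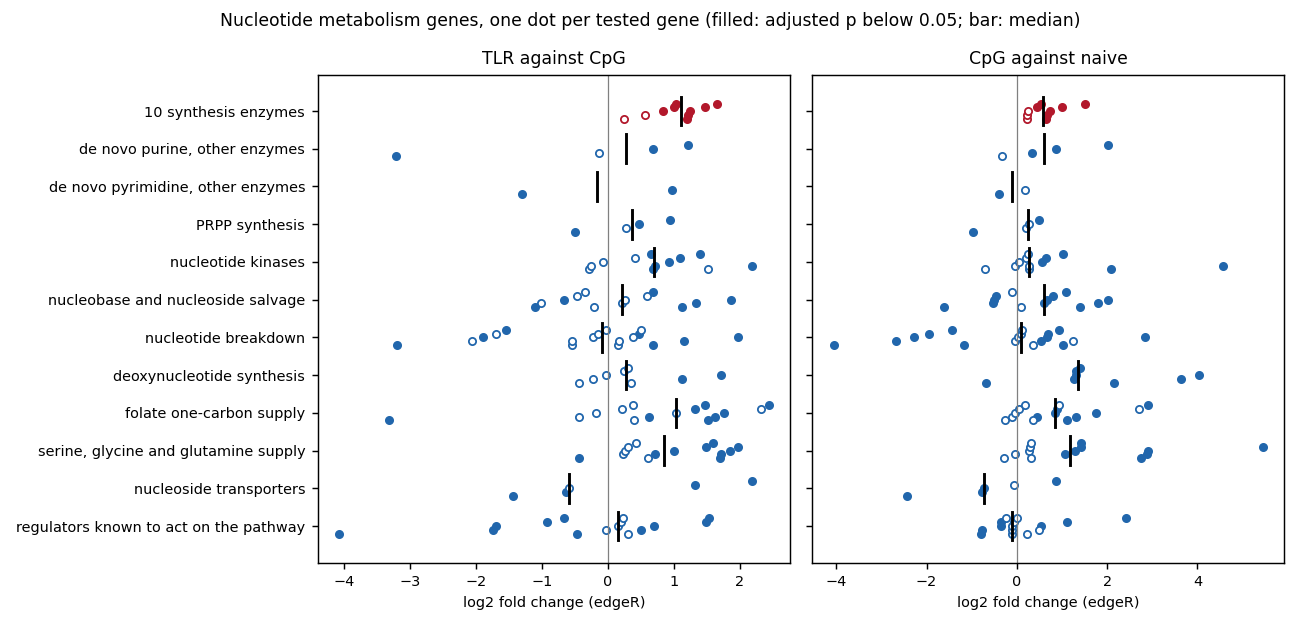
Log2 fold change from edgeR (x axis) of each tested gene (dot) of the 10 enzyme genes and of 11 other lists of nucleotide metabolism (rows), in TLR against CpG libraries (left) and CpG against naive libraries (right); filled dots have an adjusted p below 0.05 and bars are list medians. The median of the 10 enzymes is 1.12 on the left and 0.59 on the right, and that of deoxynucleotide synthesis is 0.28 on the left and 1.36 on the right.

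Over the 8 libraries, the profiles of Atic and Umps followed the mean scaled profile of the 10 most closely (Pearson r = 0.994 each) and those of Paics (0.882) and Gmps (0.881) least; each gene is part of that mean. The tested genes outside the list with the most similar log2 CPM profile were Ipo5 (r = 0.9984), Dlat (0.9977), Thoc3 (0.9958), Hnrnpab (0.9952) and Cct7 (0.9948). The points share the 3 groups, so any gene with the same order of group levels gives a high r, and no test was made. Ipo5, a nuclear import receptor, had 612 ± 55.9 CPM in TLR libraries (SD, n = 2), 265 ± 66.7 CPM in CpG libraries and 153 ± 13.0 CPM in naive libraries (SD, n = 3 each).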

How the data were processed

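The libraries, per the labels' protocols, were polyA-selected and strand-specific, from DNase-treated total RNA. The submitters' processing notes name STAR, HTSeq, edgeR and mm9, with no versions; the annotation release is not stated there. Each library has its own file of raw counts by gene, as deposited by the authors, and the file names mark the counting as not stranded. The 5 summary lines of each file stayed out of library sizes and tests; reads in no gene made up 7.84% to 15.0% of lines and ambiguous reads 1.29% to 2.15%. No coordinate was converted: symbols, gene positions, exon lengths and overlaps are those of GENCODE M21 (GRCm38), matched by identifier for 32860 of 37583 identifiers, and promoter sequences are those of RefSeq (GRCm38.p6).

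All 8 libraries were fitted in one edgeR 4.0.16 quasi-likelihood model (R 4.3.3) with a mean for each group, TMM scaling and filterByExpr, with Benjamini-Hochberg adjustment over 13964 genes. The prior count was 0.125 for fold changes and 2 for log2 CPM; each SE was taken from the log2 fold change and the root of F. DESeq2 1.42.0, other scalings and filters, the replicate number or name prefix as a term, and leaving out each library were alternatives. The fit was tested on simulated data. One listed marker gene is not reported here. The genes, lists and alternatives were chosen with earlier results of these data known. All 10 genes are named in each comparison; from each pathway list, up to 4 called genes by smallest p were open to naming in each step, together with the other enzymes of the same routes and Myc. Sequences similar to the 10 genes were sought among annotated transcripts at 95% identity or more over at least 200 bases.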

Additional observations from a re-analysis of the deposited data

How the results depend on the processing

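Over all alternatives, 668 values of the 10 genes kept their direction and their side of the threshold, 21 fell below it, 17 passed it and 4 changed sign. The sign changes concerned the difference of the steps: Ppat gave -0.02 with only RCa18 libraries and -0.26 (without CpG replicate 1) to 0.63 when 1 library was left out, Gmps -0.06 (without CpG replicate 1) to 0.69, and Ctps -0.48 to 0.01 (without CpG replicate 3). None of these differences passed the test, and the cause was not tested. Leaving out 1 library at a time gave 4 to 8 enzyme genes called higher in CpG against naive libraries, with 4 without naive replicate 1 or 3, where 2539 to 3468 of all tested genes were called higher. In TLR against CpG libraries it gave 7 to 9, with 1683 to 2756 genes called higher and 1833 to 2869 lower over all tested genes, the lowest without TLR replicate 1. For the difference of the steps, 905 to 1601 genes were called higher, and of the 10 enzyme genes 2 to 3 were called higher and 0 to 1 lower. The replicate numbers were not taken as pairs, since same-numbered naive and CpG libraries deviated together with correlations of 0.16, 0.10 and 0.00, and naive replicate 3 correlated better with CpG replicate 2 (0.15). The correlations were 0.33 and 0.30 for same-numbered CpG and TLR libraries, against -0.33 to 0.09 for other numbers, and 0.13 and 0.02 for same-numbered naive and TLR libraries. With 2 TLR libraries, deviations from the group mean are equal and opposite. Correlations with TLR replicate 1 therefore mirror those with TLR replicate 2, and the other numbers are no separate comparison there. Sorted by name prefix, correlations were 0.00 to 0.33 between libraries of the same prefix and -0.33 to -0.01 between libraries of different prefixes. Libraries of a prefix thus tended to deviate together, and the main fit holds no term for the prefix. Deviations within a group balance out, so these values are not independent. With replicate number as a block, or with the name prefix as a term, 5 of the 10 enzyme genes had a larger second step and 1, Paics, a larger first step, which was also 1 with only RCa18 libraries; 2 then had a larger second step. With the block, 7 of the 10 were called higher in CpG against naive libraries (3428 of all genes) and 9 in TLR against CpG libraries (2719 of all genes), where Gmps passed (0.61, adjusted p = 0.0177). With only RCa18 libraries, 9 were called in each of these comparisons (3450 and 2312 of all genes). The fit of only the 2 groups compared, which called 5 in CpG against naive libraries (3004 of all genes), gives no value for the difference of the steps. Other scalings moved the median over all genes by at most 0.05. With 2 TLR libraries, the spread of that group rests largely on the other groups.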

Other observations

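Nucleotide breakdown and transport gave no common direction. Of 18 tested breakdown genes, 4 were called higher and 3 lower in TLR against CpG libraries, and 6 higher and 6 lower in CpG against naive libraries (edgeR adjusted p below 0.05); of all tested genes, 19.0% were called higher and 19.8% lower in TLR against CpG libraries, and 23.5% higher and 21.9% lower in CpG against naive libraries. Samhd1, which degrades deoxynucleoside triphosphates, had 107 and 137 CPM in TLR libraries, 499, 514 and 346 CPM in CpG libraries and 899, 1041 and 1100 CPM in naive libraries, and was called lower in TLR against CpG libraries (-1.89 ± 0.21, adjusted p = 0.000111) and in CpG against naive libraries (-1.16 ± 0.18, adjusted p = 0.000614). Ampd3, an AMP deaminase, was likewise lower in TLR against CpG libraries (-1.54 ± 0.16, adjusted p = 8.62e-05) and in CpG against naive libraries (-1.43 ± 0.13, adjusted p = 3.82e-05). Among the breakdown genes called higher were Lacc1 in CpG against naive libraries (2.83 ± 0.23, adjusted p = 1.93e-05) and Tymp in TLR against CpG libraries (1.16 ± 0.23, adjusted p = 0.00355). Of 5 tested nucleoside transporters, 2 were called higher and 2 lower in TLR against CpG libraries. In CpG against naive libraries 1 was called higher and 3 lower. Slc29a1 (1.33 ± 0.21, adjusted p = 0.000928) and Slc29a2 (2.19 ± 0.26, adjusted p = 0.000174) were higher in TLR against CpG libraries. Slc28a2 (-1.44 ± 0.18, adjusted p = 0.000191) and Slc29a3 (-0.63 ± 0.16, adjusted p = 0.0123) were lower there.

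Of 15 tested regulators known to act on the pathway, 4 were called higher and 6 lower in TLR against CpG libraries, and 3 higher and 4 lower in CpG against naive libraries. Over all tested genes the shares were 19.0% higher and 19.8% lower in TLR against CpG libraries, and 23.5% and 21.9% in CpG against naive libraries. Mxd4 and Mxd1, which bind Max in place of Myc, were lower in TLR against CpG libraries (-4.07 ± 0.27, edgeR adjusted p = 8.13e-06, and -1.70 ± 0.16, adjusted p = 4.48e-05). In CpG against naive libraries, by contrast, Mxd3 (2.41 ± 0.29, adjusted p = 0.000164) and Mxi1 (1.11 ± 0.24, adjusted p = 0.00417) were called higher. Mga (-0.77 ± 0.15, adjusted p = 0.00299) and Mxd4 (-0.79 ± 0.20, adjusted p = 0.00864) were called lower at that step. Atf4, a transcription factor of the amino acid response, had 1434 and 1061 CPM in TLR libraries, 416, 362 and 554 CPM in CpG libraries and 292, 320 and 344 CPM in naive libraries, with a log2 fold change of 1.49 ± 0.20 in TLR against CpG libraries (adjusted p = 0.000304).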
